A study of Mus musculus with 9 samples.

Results

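The genes described here are 8 components of the RANKL, OPG and CSF1 axis of osteoclast formation, picked by name and found by symbol among the 39179 genes of each count file. They are Tnfsf11 (RANKL), Tnfrsf11b (osteoprotegerin, OPG), Tnfrsf11a (RANK), Traf6, Lgr4, Csf1, Il34 and Csf1r. Of these, 7 had enough counts for the test across genes, and Il34 did not. Single capillaries with the cells around them were cut by laser microdissection from the ossification front (OF) of the femur, the zone below the growth plate where new bone is laid down, of juvenile (4-week-old, n = 5) and adult (12-week-old, n = 4) mice. All mice carried the Tg(TIE2GFP)287Sato/J transgene, in which the endothelial Tie2 promoter drives GFP, on a C57BL/6 background, and the labels name no treatment. Many pieces were pooled into each sample, so that every library is a mixture of endothelial and perivascular cells, and the labels do not say which mouse a sample came from. The p-values therefore measure the spread between these samples.

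RANKL is a membrane-bound or shed cytokine of the TNF superfamily. Osteoblasts, osteocytes, hypertrophic chondrocytes and stromal cells make it, and it drives myeloid precursors to become bone-resorbing osteoclasts by binding RANK. OPG is a secreted decoy that captures RANKL before it reaches RANK, so that the balance of both sets the strength of the signal. CSF1 keeps the precursors alive and dividing through the receptor encoded by Csf1r, which IL34 also binds, and LGR4 is a further receptor for RANKL.

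The sequences upstream of Tnfsf11 and Csf1 are shown because the 2 ligands are both needed for osteoclast formation. Csf1 passed the test between the ages and Tnfsf11 did not. Whether their changes differ from each other was not tested, and the 95% interval of Tnfsf11 given below includes the Csf1 value. Both sequences are the 250 bases before the RefSeq gene start (GRCm38.p6), written 5′ to 3′ on the minus strand that carries both genes. Tnfsf11 lies at chr14:78308044-78308293 and Csf1 at chr3:107760470-107760719. The capitals mark matches on either strand to 4 short motifs. The TATA box was searched as TATAAA, and the CCAAT box by the letters of its name. The GC box, bound by factors of the SP family, was searched as GGGCGG. The AP-1 site, bound by dimers of FOS and JUN proteins, was searched as TGACTCA.
Tnfsf11: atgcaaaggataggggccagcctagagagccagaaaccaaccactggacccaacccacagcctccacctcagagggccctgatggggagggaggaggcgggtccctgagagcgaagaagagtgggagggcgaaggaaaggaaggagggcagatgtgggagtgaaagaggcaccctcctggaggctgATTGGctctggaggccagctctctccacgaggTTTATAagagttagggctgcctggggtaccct
Csf1: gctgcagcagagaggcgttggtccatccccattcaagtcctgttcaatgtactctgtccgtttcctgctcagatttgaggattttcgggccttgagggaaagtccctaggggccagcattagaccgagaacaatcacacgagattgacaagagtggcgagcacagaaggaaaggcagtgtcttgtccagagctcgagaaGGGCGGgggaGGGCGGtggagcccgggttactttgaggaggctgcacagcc
The Tnfsf11 window held 1 match to the TATA box letters, with its first base 32 bases before the start. It held 1 match to the CCAAT box at 64 bases, and both matches were on the opposite strand. On the printed strand, bases overlapping the TATA match read TATAAG, which was not among the letters searched. The Csf1 window held 2 GC boxes, at 51 and 41 bases. Among 32851 mouse promoters of this length, 12.4% held a TATA box, 33.8% a CCAAT box, 32.7% a GC box and 4.46% an AP-1 site, which neither window had. RefSeq promoters were available for 5 of the 8 genes in the table used here.

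Library totals ranged from 4856833 to 8077362 counts, and 3 counts, the limit that a count of 0 allows, correspond to 0.371 to 0.618 CPM (counts scaled to a library total of 1e+06). This limit covers counting error only. Markers of the labelled endothelial cells were present in all libraries (summed 667.9 to 1011 CPM in juveniles and 804.9 to 1002 CPM in adults), as were those of osteoblasts and osteoclasts. Juvenile replicates 4 and 5 had counts of the Y-linked gene Ddx3y (524 and 439), whereas the other libraries had at most 1. Sex is therefore not balanced between the ages, and results without these 2 libraries are given below. Adult replicate 2 stood apart from the other adult libraries by its cell markers, with the lowest neutrophil markers and the highest chondrocyte markers.

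Of the 8 genes, OPG was higher in the juvenile OF, CSF1 and its receptor were higher in the adult OF, and RANKL, RANK, TRAF6 and LGR4 did not pass the test. Normalised counts, given below, are counts scaled by the TMM method to the geometric mean library size. The ages were compared on the raw counts, with TMM-scaled library sizes in the model. The quasi-likelihood test of edgeR was used at an adjusted p under 0.05 over 13418 genes. Thus 3 of the 7 tested genes were called, against 3.88% of all genes tested (1.99% higher in juveniles and 1.89% higher in adults). Because the 8 genes were chosen with earlier results of these data known, this share is a description. The same 3 were the ones whose normalised counts did not overlap between the ages, which held for 9.15% of all genes. The median log2 fold change, juvenile over adult, was −0.50 over the 7 genes and −0.01 over all genes tested. In pieces of tissue, fewer cells of a type and less RNA per cell cannot be told apart.

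**Figure D1:**
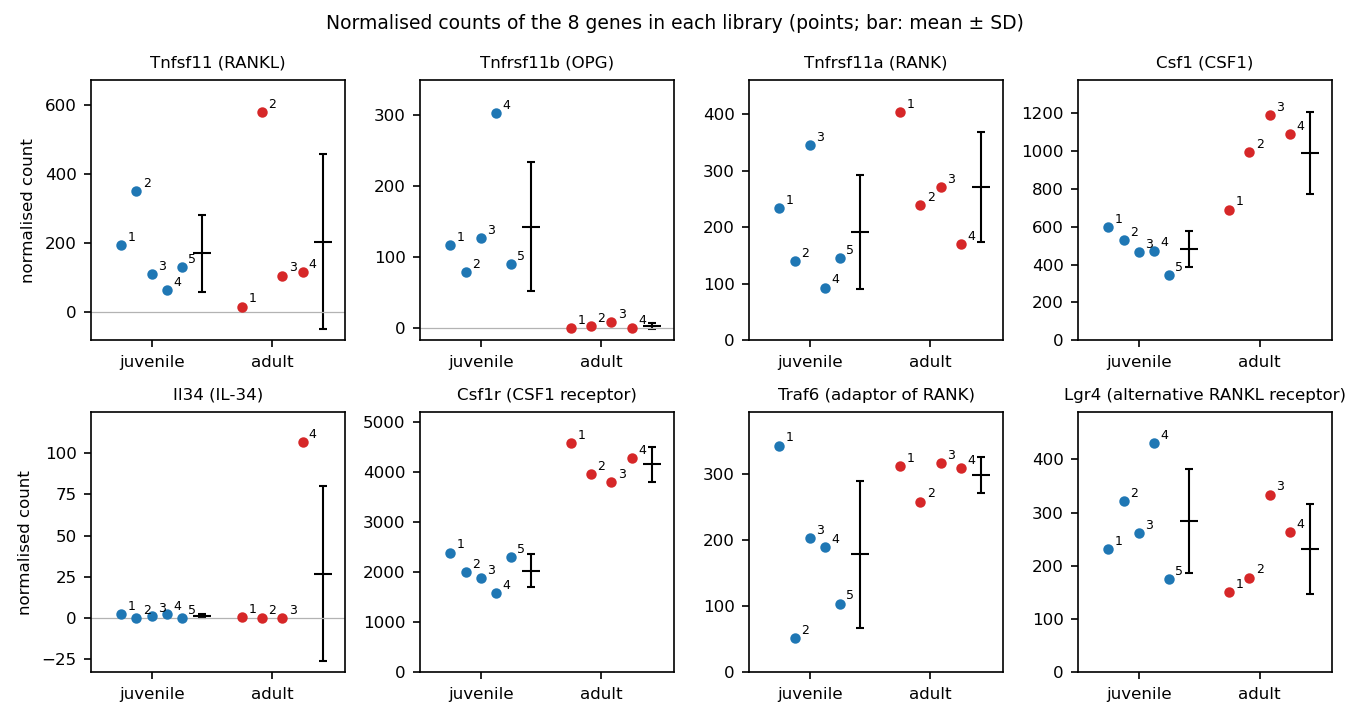
Normalised counts (vertical axes) of the 8 genes in 5 juvenile (blue) and 4 adult (red) libraries, where points carry the replicate number and bars give the mean ± SD. Tnfrsf11b, Csf1 and Csf1r are apart between the ages, a single adult library carries the highest Tnfsf11 and another nearly all Il34.

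Tnfsf11, encoding RANKL (ENSMUSG00000022015, chromosome 14, 78277445 to 78308043, minus strand, GRCm38), varied more within an age than between the ages. Its normalised counts were 195.7, 350.8, 110.9, 64.8 and 130.4 in juvenile replicates 1 to 5, and 16.69, 579.6, 106.4 and 117.2 in adult replicates 1 to 4. The lowest and the highest value of the series were both adult, and every juvenile value lay between them. The log2 fold change was −0.26 (SE 0.754, 95% interval −1.89 to 1.37, adjusted p = 0.9235). This interval still includes changes of 3.71-fold towards adults and of 1.37 log2 units towards juveniles. The direction rested on adult replicate 2: without it the log2 fold change was 1.07 (adjusted p = 0.4501). In that library the chondrocyte markers summed to 4770 CPM, against 596.3 to 1071 CPM in the other adult libraries and 362.9 to 994.7 CPM in juveniles, and the part of chondrocytes in its RANKL count was not tested. None of the 10 chondrocyte markers was at 0 in all libraries.

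Tnfrsf11b, encoding OPG (ENSMUSG00000063727, chromosome 15, 54250619 to 54278484, minus strand), was nearly absent from the adult libraries. Juvenile replicates 1 to 5 had 103, 87, 95, 256 and 68 reads, and adult replicates 1 to 4 had 0, 3, 12 and 0. In normalised counts these were 117.2, 78.66, 126.9, 301.6 and 90.46 against 0, 3.145, 9.318 and 0. The lowest juvenile value was several times the highest adult value. At the depth of adult replicates 1 and 4, a count of 0 allows up to 0.371 and 0.416 CPM. The fitted log2 fold change was 5.47 (SE 1.09, 95% interval 3.11 to 7.83, adjusted p = 0.01603), a 44.4-fold higher level in juveniles with an interval of 8.63 to 228. The call was lost without juvenile replicate 4, which had the most OPG, where the value was 5.0 and the adjusted p 0.06062. In that setting the number of genes called over the whole table fell from 520 to 275. With juvenile replicate 4 kept, the call was also lost in another test, limma voom with quality weights (adjusted p = 0.1219), and in further settings given below.

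The osteoblast markers, 11 genes of the cells that are a main source of OPG, were higher in juveniles as a list, with a summed level of 168500 to 210600 CPM against 61980 to 91820 CPM in adults. Their mean log2 CPM differed by 0.58 (exact permutation p = 0.007937, adjusted over 15 marker lists 0.02976). Its members did not all go the same way, as 6 were called higher in juveniles and 2 in adults. The latter were Bglap (log2 fold change −2.04, adjusted p = 0.0151) and Bglap2 (−2.38, adjusted p = 0.008274), near-identical copies of the osteocalcin gene. Both copies were higher in adults, and how reads were divided between them was not tested. This pair and the other single markers given below were picked out after their values were seen. OPG differed from the mean of the list: relative to the mean of the osteoblast markers in the same library, its log2 CPM was −6.07 ± 0.703 in juveniles and −10.6 ± 1.08 in adults. The difference of 4.48 had an exact permutation p of 0.007937, the smallest that 5 against 4 libraries can give, and an adjusted p of 0.02116 over 8 such comparisons. RANKL relative to the same markers differed by −0.14 (exact permutation p = 0.8968), and this sign turned without adult replicate 2 (0.70), adult replicate 4 (0.01) or juvenile replicate 4 (0.16).

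The ratio of RANKL to OPG within a library, which does not depend on library size, was higher in every adult library than in any juvenile one. With 0.5 added to both counts it was 1.67, 4.44, 0.874, 0.216 and 1.44 in juvenile replicates 1 to 5, so that RANKL and OPG reads were of the same order. The adult ratios were 47, 158, 11 and 299 in replicates 1 to 4. Since 2 adult libraries had no OPG read, their ratios are only bounded from below, at least 7.67 in adult replicate 1 and at least 49.7 in adult replicate 4 when OPG is set at 3 counts. Adult replicate 2, with 3 OPG reads, had a ratio of 184 of its plain counts, with an exact 95% counting interval of 62.8 to 897. Exact 95% lower limits, which include the counting error of RANKL, were 5.75 in adult replicate 1 and 39.9 in adult replicate 4. All of these bounds remained above 4.46, the highest juvenile ratio of plain counts. That ratio, of juvenile replicate 2, had an exact 95% interval reaching 5.69, close to the lower limit of adult replicate 1.

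On the log2 scale the ratio was 0.202 ± 1.59 (SD, n = 5) in juveniles and 6.14 ± 2.10 (SD, n = 4) in adults, a difference of −5.93. The two-sided exact permutation p was 0.007937, the smallest possible, and 0.02381 after adjustment over 3 ratios. With OPG counts under 3 set to 3, the difference was −4.70 (exact permutation p = 0.007937). Without juvenile replicates 4 and 5 it was −5.24 (exact permutation p = 0.05714, adjusted over 3 ratios 0.1714) and did not pass. Fewer arrangements were possible there, but this was not their smallest p, as another arrangement gave a difference at least as large. Of the 2 genes in the ratio, OPG was apart between the ages and RANKL overlapped.

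**Figure D2:**
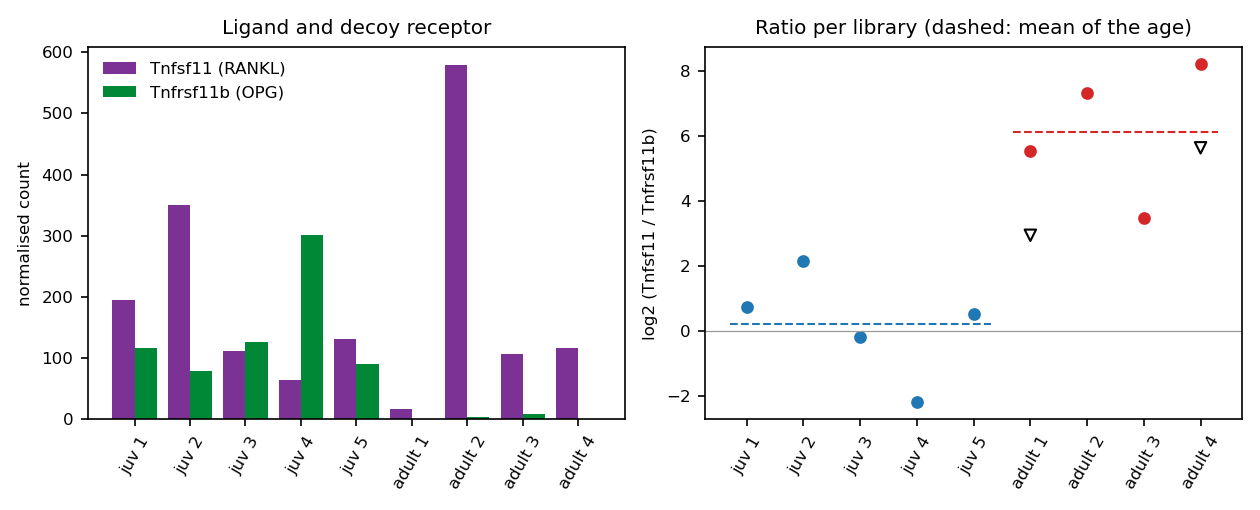
Left, normalised counts of Tnfsf11 (purple) and Tnfrsf11b (green) in each library. Right, log2 ratio of their counts with 0.5 added (filled points, juvenile blue, adult red, dashed lines at the age means of 0.202 and 6.14) and, as open triangles, the lower bounds of the 2 adult libraries without an OPG read, all of which lie above the juvenile points.

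RANK itself and the parts closest to it did not pass the test. Tnfrsf11a, encoding the receptor on osteoclast precursors and osteoclasts (ENSMUSG00000026321, chromosome 1, 105780718 to 105847981, plus strand), had normalised counts of 234.4, 140.1, 345.9, 93.08 and 145 in juveniles and 403.4, 240, 271 and 169.9 in adults. The ages overlapped broadly, with a log2 fold change of −0.50 (SE 0.398, 95% interval −1.36 to 0.36, adjusted p = 0.599). Traf6, the ubiquitin ligase that couples RANK to NF-κB and MAP kinases (ENSMUSG00000027164, chromosome 2, 101678429 to 101701669, plus strand), had 342.5, 51.53, 203, 189.7 and 103.8 in juveniles and 311.2, 257.9, 316 and 308.2 in adults. Its juvenile counts were spread widely and its adult counts were close together, and the highest value was juvenile (log2 fold change −0.75, SE 0.435, adjusted p = 0.4254).

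Lgr4, encoding the leucine-rich receptor that binds R-spondins as well as RANKL (ENSMUSG00000050199, chromosome 2, 109917647 to 110014257, plus strand), had 231, 321.9, 261.8, 430 and 175.6 in juveniles and 150.2, 178.2, 333.9 and 264.2 in adults. The log2 fold change was 0.29 (SE 0.335, adjusted p = 0.7462) and the ages overlapped. Markers of osteoclasts, which carry RANK, did not pass the test between the ages, with a difference in mean log2 CPM of −0.09 (exact permutation p = 0.5873) and all 10 markers detected, and of −0.45 on the summed scale (exact permutation p = 0.04762, adjusted over 15 lists 0.07937). Of these 10 genes, 2 were called higher in adults, the phosphatase gene Acp5 (log2 fold change −0.88, adjusted p = 0.006259) and the proton pump subunit Atp6v0d2 (−0.93, adjusted p = 0.03997), and none in juveniles. Tnfrsf11a relative to these markers differed by −0.49 (exact permutation p = 0.2857), and relative to the macrophage markers by 1.29 (exact permutation p = 0.2778).

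Csf1, the ligand that supports precursors of osteoclasts and macrophages (ENSMUSG00000014599, chromosome 3, 107741048 to 107760469, minus strand), was higher in every adult library. Normalised counts were 597.4, 528.9, 463.5, 473.6 and 345.9 in juveniles (481.9 ± 92.8, SD, n = 5) and 689.9, 992.6, 1191 and 1090 in adults (990.9 ± 216.4, SD, n = 4). The log2 fold change of −1.04 (SE 0.215, 95% interval −1.50 to −0.57, adjusted p = 0.01867) means a 2.06-fold higher level in adults. Without juvenile replicate 3 or juvenile replicate 4 the value stayed at −1.03 and the adjusted p was 0.05099 and 0.05129. Csf1 moved against the osteoblast markers, and its log2 CPM relative to them was lower in juveniles by 1.61 units (difference −1.61, exact permutation p = 0.007937, adjusted over 8 comparisons 0.02116). Markers of adipogenic marrow stroma, another source of CSF1, differed by −0.84 in mean log2 CPM (exact permutation p = 0.05556), summed to 311 to 472.4 CPM in juveniles and 425.9 to 1196 CPM in adults, and none of the 7 was at 0 in all libraries. The called members went opposite ways, with the chemokine gene Cxcl12 higher in adults (log2 fold change −2.59, adjusted p = 0.002833) and the leptin receptor gene Lepr higher in juveniles (1.84, adjusted p = 0.002847). Their part in the Csf1 difference was not tested.

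Il34, the second ligand of the same receptor (ENSMUSG00000031750, chromosome 8, 110741829 to 110805924, minus strand), was at or under the floor of 3 reads in 8 of 9 libraries. Juvenile libraries had 2, 0, 1, 2 and 0 reads and adult libraries 1, 0, 0 and 136. All reads but 6 were thus in adult replicate 4, which also had the highest megakaryocyte markers (4247 CPM summed, against 62.36 to 604.7 CPM in the other adults) and erythroid markers (36820 CPM, against 4666 to 11240 CPM). The part of these cells in the Il34 count was not tested. Csf1 reads outnumbered those of Il34 in all 9 libraries, also in adult replicate 4, where the ratio was 10.2 (exact 95% counting interval 8.54 to 12.3). The ratio of both did not separate the ages (difference in log2 ratio −0.36, exact permutation p = 0.873).

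Csf1r, the receptor tyrosine kinase of macrophages, monocytes and osteoclast precursors (ENSMUSG00000024621, chromosome 18, 61100598 to 61132149, plus strand), was the most abundant of the genes and the one whose difference was the steadiest. Juvenile libraries had 2392, 2007, 1887, 1576 and 2300 normalised counts and adult libraries 4573, 3966, 3800 and 4279. The lowest adult value was far above the highest juvenile value. The log2 fold change was −1.03 (SE 0.159, 95% interval −1.37 to −0.69, adjusted p = 0.004063), a 2.04-fold higher level in adults with an interval of 1.61 to 2.59. It passed the test under all 20 alternatives of processing, the highest adjusted p being 0.04229. Exons of Csf1r share 873 bases with Hmgxb3 on the opposite strand, and without a stated strand setting such reads cannot be told apart. All reads of Hmgxb3 came to 3.99% of those of Csf1r.

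Csf1r was higher in adults by more than the mean of the osteoclast markers, with a difference relative to them of −0.95 (exact permutation p = 0.007937, adjusted over 8 comparisons 0.02116). Relative to the macrophage markers the difference was 0.83 (exact permutation p = 0.4524), and on the summed scale −0.21. Macrophage markers themselves summed to 263.5 to 463.9 CPM in juveniles and 387.4 to 995.9 CPM in adults (difference in mean log2 CPM −1.87, exact permutation p = 0.1349; −2.92 with p = 0.01786 without adult replicate 2), and none of the 9 was at 0 in all libraries. Monocyte markers were higher in every adult library, at 45.93 to 335.4 CPM against 9.01 to 30.86 CPM, with a difference in mean log2 CPM of −3.26 (exact permutation p = 0.007937). Neutrophil and erythroid markers differed by −6.21 and −4.29 (exact permutation p = 0.007937 each, adjusted over 15 lists 0.02976). Of the remaining lists, osteocytes differed by −0.85 and megakaryocytes by −3.42 (exact permutation p = 0.02381 and adjusted p = 0.05952 each). The osteocyte value turned to 1.35 on the summed scale, and its 1 called gene, Dmp1, encoding a protein of the mineralising matrix, was higher in juveniles (log2 fold change 1.93, adjusted p = 0.002033). B cells (−1.75), chondrocytes (−1.31), T cells (−0.25), pericytes and smooth muscle (−0.10), endothelial cells (0.02) and skeletal muscle (0.18) had adjusted permutation p-values of 0.2249 to 0.8889. The part of the blood cells in the Csf1 and Csf1r differences was not tested. The ratio of RANK to CSF1 receptor reads did not separate the ages, at 0.46 log2 units higher in juveniles (exact permutation p = 0.3333).

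**Figure D3:**
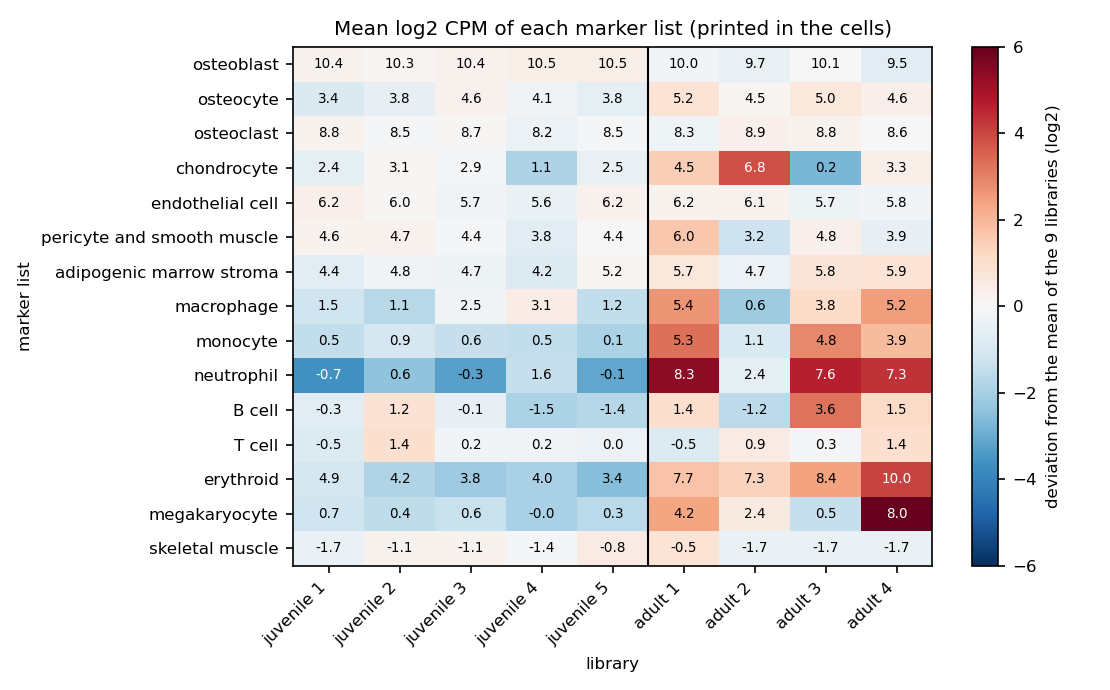
Mean log2 CPM of the 15 marker lists (rows, value printed in each cell) in the 9 libraries (columns), coloured by the deviation from the mean of the list. Neutrophil, monocyte and erythroid markers are higher in the adult libraries, osteoblast markers are higher in juveniles, and adult replicate 2 has the highest chondrocyte markers.

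Levels of the 8 genes can be set beside each other only per length. In CPM per kilobase of annotated exons, the order of the juvenile medians was Csf1r (55.4), Csf1 (14.3), Tnfsf11 (9.29), Lgr4 (7.09), Tnfrsf11b (6.63), Tnfrsf11a (3.86), Traf6 (3.83) and Il34 (0.109). Csf1r stood above Csf1, and Traf6 above Il34, without overlap, whereas every other neighbour in the order overlapped. In adults the order was Csf1r (114), Csf1 (31.4), Tnfsf11 (7.97), Tnfrsf11a (6.80), Traf6 (6.26), Lgr4 (5.99), Tnfrsf11b (0.0889) and Il34 (0.0295). Here Csf1r was apart from Csf1, and Lgr4 from Tnfrsf11b, and the other neighbours overlapped. OPG thus lay in the middle of the juvenile order and near its end in adults.

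The wider pathway was followed in 6 lists with 78 further genes, of which 66 could be tested. Of these, 6 passed the test (9.09%, against 3.88% of all genes), 1 higher in juveniles and 5 in adults. The 6 include Blvrb, which was listed in error, as given below. The median log2 fold change was −0.21 over the 66 genes and −0.01 over all genes tested. Because the lists were chosen with earlier results of these data known, these shares are a description. The number called fell to 2 without juvenile replicate 5 and to 3 without juvenile replicate 2, 3 or 4 or without adult replicate 4, and it was 15 in DESeq2. Without juvenile replicates 4 and 5 edgeR called 0, with 16 at an unadjusted p under 0.05.

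In RANK signal transduction, 1 of 22 genes passed the test and the median was −0.18. Nfkbia, the inhibitor that holds NF-κB in the cytoplasm, was higher in adults (784.8 to 1444 normalised counts in juveniles, 1445 to 2605 in adults). Its log2 fold change was −1.06 (SE 0.219, adjusted p = 0.01851). The adjusted p was 0.05422 without juvenile replicate 4 and 0.05456 without juvenile replicate 5. Rela, the p65 subunit of NF-κB, had a log2 fold change of 0.64 (adjusted p = 0.1289), Traf2, an adaptor, −0.65 (adjusted p = 0.1575) and Tnfaip3, the deubiquitinase A20, −1.86 (adjusted p = 0.165).

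Among 12 genes listed as osteoclast transcription factors and repressors, 2 were higher in adults and the median was −1.03. Nfatc1, the master regulator of osteoclast differentiation, had 543.4 to 1014 normalised counts in juveniles and 1230 to 1933 in adults. Its log2 fold change of −1.07 (SE 0.206, adjusted p = 0.01424) passed the test whichever single library was left out, but not without juvenile replicates 4 and 5 together (−1.01, adjusted p = 0.1384). The other called gene, Blvrb (−2.86, adjusted p = 0.01124), encodes a haem enzyme of red cells and is no transcription factor; it was listed in error. Without it, 1 of 11 was called and the median was −1.01. Fosl2, an AP-1 subunit, had −1.08 (adjusted p = 0.05426) and Spi1, the myeloid factor PU.1, −1.01 (adjusted p = 0.08566).

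Below the CSF1 receptor, 2 of 13 tested genes were called, with a median of −0.16. Tyrobp, the adaptor DAP12 of myeloid cells, had 1251 to 2659 normalised counts in juveniles and 2281 to 5184 in adults (log2 fold change −1.21, SE 0.265, adjusted p = 0.02396). The adjusted p of Tyrobp was 0.05211 to 0.07109 without juvenile replicate 2, 3, 4 or 5 or adult replicate 3 or 4. Among the genes next by p, Ptpn6, the phosphatase SHP-1, had −1.62 (adjusted p = 0.0822), Inpp5d, the phosphatase SHIP-1, −0.86 (adjusted p = 0.1958) and Pik3cd, a PI3 kinase subunit, 1.29 (adjusted p = 0.5501).

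No gene passed the test among the relatives of LGR4 or among the hormone and cytokine inputs to RANKL and OPG. Of 8 LGR receptors, R-spondins and their ligases 4 were tested, with a median of 0.53 and none at an unadjusted p under 0.05. Lgr6, a further R-spondin receptor, had 1.26 (adjusted p = 0.3343), Rspo3, an R-spondin, 0.72 (adjusted p = 0.3713), and Rnf43, a ligase that removes Wnt receptors, −2.31 (adjusted p = 0.5723). Of 14 inputs 10 were tested, with a median of 0.03 and 1 at an unadjusted p under 0.05. That gene was Tgfb1, encoding TGF-β, with 0.74 (adjusted p = 0.1316). Pth1r, the parathyroid hormone receptor, had 4262 to 6993 normalised counts in juveniles and 3384 to 5316 in adults (0.37, adjusted p = 0.3548), and Vdr, the vitamin D receptor, had −0.47 (adjusted p = 0.3858). Il1b and Il6, encoding inflammatory cytokines, were at 0 in all 9 libraries.

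Of the other TNF superfamily genes, 1 of 5 tested was called and the median was −1.19. Tnfsf8, the ligand of CD30, had 0 to 17.36 normalised counts in juveniles and 72.32 to 209.2 in adults. Its log2 fold change was −3.70 (SE 0.851, adjusted p = 0.03166), and the adjusted p was 0.08664 without adult replicate 4, 0.06633 without juvenile replicate 1, 0.07164 without juvenile replicate 2, 0.05202 without juvenile replicate 3 and 0.07109 without juvenile replicate 5. Tnfsf10 (TRAIL), a death ligand that OPG also binds, had −1.19 (adjusted p = 0.3637), Ltb, encoding lymphotoxin beta, −2.21 (adjusted p = 0.1864) and Tnfsf12 (TWEAK) −0.37 (adjusted p = 0.8436).

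**Figure D4:**
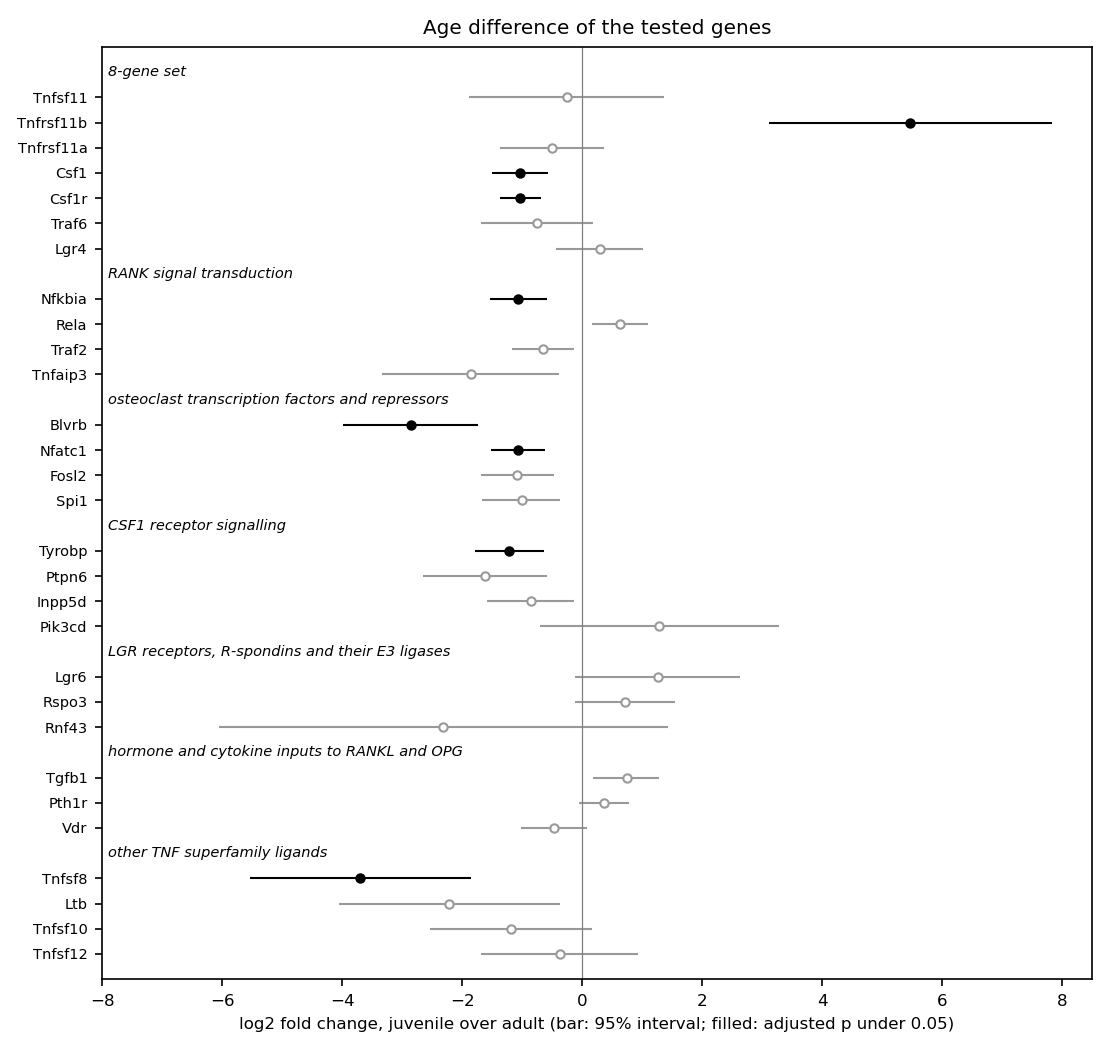
Log2 fold change, juvenile over adult, with its 95% interval for the 7 tested genes of the axis and for genes named from the 6 pathway lists, filled where the adjusted p is under 0.05. Tnfrsf11b at 5.47 is the filled point on the juvenile side, and Csf1, Csf1r, Nfkbia, Nfatc1, Blvrb, Tyrobp and Tnfsf8 those on the adult side.

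For each gene, the pattern most like its own was sought over the 9 libraries among 7598 well-expressed genes by Pearson's r of log2 CPM. The points of both ages enter each value, and the genes named are the highest of many, so that r is a description. OPG was followed most closely by Golt1b (0.981), Dnpep (0.978) and Lox (0.977), the collagen crosslinking enzyme lysyl oxidase. For Csf1r they were Rgs10 (0.981), Tmbim6 (0.971) and Lrrc8d (0.956), and for Csf1 they were Lyrm2 (0.967) and Polr2b (0.956). RANKL had its nearest genes at lower values, Fuom (0.917), Aurkaip1 (0.917) and Arf2 (0.910). The nearest gene of RANK was Manf (0.942), that of Traf6 Umps (0.950), that of Lgr4 Tmed1 (0.928) and that of Il34 Gm26722 (0.898).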

How the data were processed

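Per the labels and the study's methods, the authors amplified RNA of the microdissected pieces with SMART-Seq v4, mapped paired-end reads to mm10 with TopHat2 and Bowtie2, and deposited raw counts per Ensembl gene, without normalisation. The submitters' processing notes name featureCounts; its strand setting and annotation release are not given in the sources used here. Amplified reads are not independent molecules, and a shift in cell mixture changes any gene's share of the counts. Symbols and positions came from GENCODE for GRCm38 (96.2% of identifiers matched), and promoters from RefSeq.

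Ages were compared in edgeR 4.0.16 (R 4.3.3; filterByExpr, TMM, quasi-likelihood F test, Benjamini-Hochberg over 13418 genes, threshold 0.05). Single values were tested by two-sided exact permutation of the library labels (126 arrangements of all 9 libraries, and fewer where libraries were left out). Log2 CPM used a prior count of 2, and ratios an added count of 0.5. Normalised counts were counts divided by the TMM-scaled library size relative to its geometric mean. Alternatives used DESeq2 1.42.0, limma 3.58.1, other scalings and filters, the replicate number as a block, and each library left out. The fit was tested on simulated data. Figures were drawn with matplotlib 3.10.9.

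The 8 genes and all lists were chosen with earlier results of these data known. Named from the lists were the genes past the threshold and up to 3 more per list by p, and for each of the 8 genes the 3 with the highest r among genes of at least 20 mean CPM. No 2 libraries were copies in 36 pairs. Some genes that this rule names are not reported here.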

Additional observations from a re-analysis of the deposited data

Results flagged for a closer look

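Within an age, a library was noted where its gap to the nearest other library, divided by the range of the group, passed Dixon's critical value at the 95% level. This happened in 5 of 52 groups, and chance alone gives about 2.60. Tnfrsf11b was 301.6 normalised counts in juvenile replicate 4, against 78.66 to 126.9 in the other juveniles. Il34 was 106.9 in adult replicate 4, against 0 to 0.7255 in the other adults. Traf6 was 257.9 in adult replicate 2, under the 308.2 to 316 of the other adults. The neutrophil markers had a mean log2 CPM of 2.399 in adult replicate 2, against 7.335 to 8.343 in the other adults. The skeletal muscle markers had a mean log2 CPM of −0.4715 in adult replicate 1 and −1.686 in the other adults, where all 4 markers were at 0.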

How the results depend on the processing

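Csf1r kept its direction and its call under all alternatives, and Tnfrsf11b and Csf1 kept their direction under all that gave a value. With at least 10 counts required in every library, Tnfrsf11b was not among the genes tested. The cause of the changes below was not tested.

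The number of genes called was 1490 in DESeq2 (719 higher in juveniles, 771 in adults), 89 with the replicate block (53 and 36), 73 without juvenile replicates 4 and 5 (42 and 31), and 262 to 651 with single libraries left out. It was 332, 293, 275 and 262 without juvenile replicates 2, 3, 4 and 5. For the pathway lists it was 15 in DESeq2, 0 with the replicate block and without juvenile replicates 4 and 5, and 2 to 7 with single libraries left out. In both settings with 0 calls by edgeR, 17 and 16 genes had an unadjusted p under 0.05, against 18 on all libraries without the block.

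Tnfrsf11b was 6.25 (adjusted p = 0.1219) in limma voom with quality weights, 5.06 (adjusted p = 0.1609) without juvenile replicates 4 and 5, and 5.0 to 7.11 with single libraries left out. Csf1 was −0.90 (adjusted p = 0.1494) without juvenile replicates 4 and 5 and −1.19 to −0.94 with single libraries left out. Tnfsf11 turned to 0.19 in voom, 0.11 without juvenile replicates 4 and 5 and 0.63 without juvenile replicate 2 and adult replicate 2, an alternative chosen after seeing the data, and it was −0.71 to 1.07 with single libraries left out. Il34 gave −4.38 (adjusted p = 0.2575) without a filter on low counts.

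The labels give both ages the same replicate numbers, but the deviations of same-numbered libraries from their age correlated at −0.032 to 0.030, so that the numbers were not taken as pairs. With the replicate block, Tnfrsf11b was 6.15 (adjusted p = 0.09897), Csf1 −0.92 (adjusted p = 0.1436) and Tnfsf11 0.30, Nfatc1 had an adjusted p of 0.0596, and 3 of 4 pairs correlated best with their own number. The RANKL to OPG ratio over the 4 pairs differed by −6.01 (exact permutation p = 0.125, the smallest that 4 pairs allow).

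The RANKL to OPG ratio was −6.83 to −5.24 with single libraries left out. Without juvenile replicates 4 and 5 it was −5.24 (exact permutation p = 0.05714, adjusted p = 0.1714, from fewer arrangements but not their smallest p). The setting of OPG counts under 3 to 3 was also chosen after seeing the data. The CSF1 to IL34 ratio (−2.17 to 0.58 with single libraries left out) turned to 0.35 without adult replicate 2, 0.58 without adult replicate 3 and 3.59 for summed counts. Tnfsf11 relative to osteoblast markers turned to 0.35 without juvenile replicates 4 and 5, 0.16 without juvenile replicate 4, 0.70 without adult replicate 2, 0.01 without adult replicate 4 (range with single libraries left out −1.04 to 0.70) and 0.36 without juvenile replicate 2 and adult replicate 2. Csf1r relative to macrophage markers turned to −0.21 on the summed scale.

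Of the marker lists, those at an unadjusted p under 0.05 fell to 1 without juvenile replicates 4 and 5. With these libraries left out the permutation has fewer arrangements and a larger smallest p, which is still under 0.05. Whether the fall depends on these 2 libraries or on the smaller number of libraries was not tested. On the summed scale the osteocyte list turned to 1.35, endothelial cells to −0.10, pericytes to 0.12 and T cells to 0.45. Without juvenile replicates 4 and 5, osteoclasts turned to 0.03 and pericytes to 0.09. With single libraries left out, endothelial cells turned to −0.05, −0.07 or −0.02, pericytes to 0.05 or 0.42 (lowest −0.60, without juvenile replicate 2 and adult replicate 2) and T cells to 0.03 (lowest −0.57).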
